A study of Mus musculus with 39 samples.

Results

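The fucosyltransferase genes were taken as every symbol of the deposited count table made of Fut and a number. The rule found 7 genes among 16358: Fut1, Fut2, Fut4, Fut7, Fut8, Fut10 and Fut11. Fut9 was not analysed here. The study gave leptin or saline into the brain of mice and profiled the duodenum by RNA sequencing in 39 libraries. All mice were wild-type C57BL/6 males, 8 weeks old at surgery, with a cannula in the right lateral ventricle. For 48 h their drinking water was left plain or held antibiotics, namely ampicillin at 1 g/L plus neomycin at 0.5 g/L. The injection (3 µg leptin, or saline as control) came 3 days after surgery. Food was withdrawn for 2 h before it, and tissue was taken 2 h after it.

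The 4 groups were Saline-water (14 libraries), Leptin-water (13), Saline-antibiotic (6) and Leptin-antibiotic (6). The library names fall into a series M, with 8 Saline-water and 7 Leptin-water libraries, and a series MT, with 6 libraries of each group; they are called set M and set MT here. The labels do not say whether each library is 1 animal, so the p-values measure the spread between these samples. The counts came from whole duodenum, in which fewer cells of a type and less RNA per cell cannot be told apart. Total counts ran from 30207536 to 67870777 per library. The 9 epithelial markers listed were all measured in every library. The 16 exocrine pancreas genes measured averaged above 4 log2 CPM (counts scaled to equal library size) in 6 libraries, which were Leptin-antibiotic 3, Saline-antibiotic 1, 2 and 5, and Leptin-water 6 and 10.

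Fucosyltransferases move the sugar fucose from its activated donor, GDP-fucose, onto glycans of proteins and lipids in the secretory pathway. In the gut, fucose on mucins and on the epithelial surface is a food source and an attachment site for bacteria, and epithelial fucosylation is known to respond to the microbiota and to interleukin-22. Fut1 and Fut2 make the H antigen, and Fut2 is the form of secretory epithelium. Fut4 and Fut7 build Lewis-type antigens, and Fut7 is known for selectin ligands on leukocytes. Fut8 alone adds the core fucose of N-glycans. Fut10 and Fut11 were assigned to the family by sequence, and their roles are less well described.

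Fut1 (chromosome 7, 45617289 to 45621059, plus strand) and Fut2 (45648591 to 45666394, minus strand) are neighbours on GRCm38, as annotated by GENCODE vM21. The related gene Sec1 (45677686 to 45694402, minus strand) lies beside Fut2. Fut4 (chromosome 9, 14748320 to 14752393, minus strand) has 1 exon of 4074 bases. Fut7 is on chromosome 2 (25423267 to 25426374), Fut8 on chromosome 12 (77238125 to 77476338), Fut10 on chromosome 8 (31187331 to 31261738) and Fut11 on chromosome 14 (20694968 to 20701016), all on the plus strand. Fut8 shares 75 exon bases with 9530018F02Rik, a noncoding RNA on the opposite strand. The kit marks strand, but whether the counting used it is not given in the sources used here, so reads over those bases may belong to either gene.

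RefSeq start-site windows (GRCm38.p6, 250 bases before to 50 after each start) were available for 5 of the 7 genes: Fut1, Fut4, Fut7, Fut8 and Fut11. Fut4 moved with glucocorticoid-responsive genes in these libraries (values below). The windows were therefore searched on both strands for AGAACA, a half-site of the glucocorticoid receptor's binding site. The Fut4 window held 1 match and 2 of the Fut8 windows held 1 each, while the windows of Fut1, Fut7 and Fut11 held none. The matched stretches are shown with the motif in capitals, AGAACA for Fut4 and its reverse complement TGTTCT for Fut8.
Fut4 (chr9:14752104-14752133, minus strand): cgcagggctaggAGAACAgtgtctggaagg
Fut8 (chr12:77388859-77388888, plus strand): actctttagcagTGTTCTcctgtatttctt
Fut8 (chr12:77410040-77410069, plus strand): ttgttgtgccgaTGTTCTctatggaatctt
A match to these letters occurred in 19.0% of all 32851 windows of this length, so the matches are descriptions of the sequence and not sites. The Fut4 stretch lies inside the GENCODE exon, whose start is farther upstream than the RefSeq start. GGGCGG, the GC box, was present in 35.7% of all windows and in at least 1 window each of Fut1, Fut7, Fut8 and Fut11. Fut7 and Fut8 had more than 1 window, and not all of these held it. TTCNNNGAA, the STAT site, was in 8.30% of all windows and in no window of these 5 genes. Other motifs searched were the E-box (7.15% of all windows), D-box (0.938%), CDX site (11.9%) and nuclear receptor half-site (16.3%). They also had no match in these 5 genes.

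Per kilobase of exon, Fut4 and Fut8 held most of the family's counts. Fut4 had a median of 22.3 CPM per kilobase (15.2 to 42.5 over 39 libraries) and Fut8 14.1 (12.1 to 23.6). Fut2 followed at 3.79 (1.14 to 8.92) and Fut11 at 2.99 (2.49 to 3.55). Fut10 (0.457), Fut1 (0.227) and Fut7 (0.132) were far lower. Fut1 had 12 to 57 reads per library and Fut7 4 to 31, so their values carry large counting error. In 23 libraries the order was Fut4, Fut8, Fut2, Fut11, Fut10, Fut1 and Fut7. Fut11 stood above Fut2 in 9 libraries and Fut7 above Fut1 in 6, so these 2 neighbouring pairs did not separate beyond their spread. Fut8 stood above Fut4 in 1 library only.

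**Figure D1:**
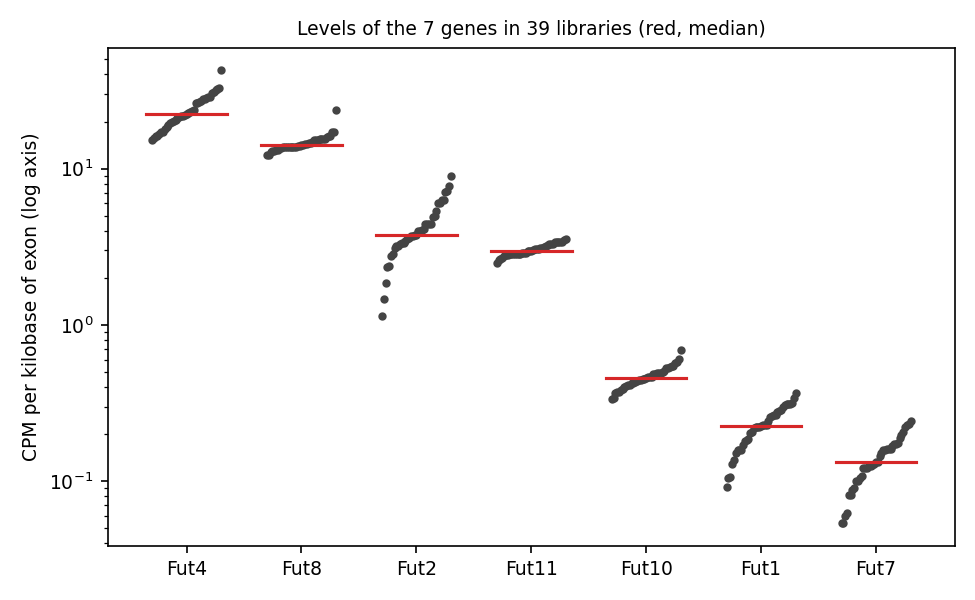
Level of each fucosyltransferase gene in CPM per kilobase of exon (log axis), 1 point per library, with the median of 39 libraries as a red line. Fut4 and Fut8 lie above the other 5 genes in every library, and Fut1 and Fut7 lie lowest.

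The genes also differed in how much they varied between libraries. The coefficient of variation of Fut2 was 40.5%, against a median of 11.8% for the 2357 genes within 0.5 log2 CPM of its level, and 1.57% of those genes varied more. Fut4 varied by 25.3%, against a median of 10.2% for genes of its level, and 3.34% of those varied more. Fut8 varied by 13.2% (median at its level 10.3%). Fut11 was among the steadier genes, at 8.91% against a median of 13.3%. These spreads include the differences between groups.

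Fut4, which makes Lewis x structures, rose with leptin in mice on antibiotic. In set MT, Saline-antibiotic libraries had 62.1, 71.8 and 87.4 CPM of Fut4 (lowest, median, highest) and Leptin-antibiotic libraries 118, 128 and 173. All 6 leptin libraries lay above all 6 saline libraries, an ordering that 1.6% of all genes tested showed. The log2 fold change was 0.86 (SE 0.13; edgeR quasi-likelihood test, Benjamini-Hochberg adjusted p = 0.0098). It was the ninth of the 75 genes that rose, ranked by fold, and 0.514% of all genes tested passed in this comparison. The other 6 fucosyltransferase genes did not pass (adjusted p from 0.693 to 0.954).

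On water the shift of Fut4 was smaller and did not pass the test. In set MT the Saline-water libraries had 63.7, 77.7 and 132 CPM (lowest, median, highest) and the Leptin-water libraries 95.8, 112 and 118. All 6 leptin libraries exceeded the saline median, but none exceeded the highest saline library, Saline-water 10. In set M the values were 67.5, 82.0 and 107 CPM after saline and 83.8, 93.2 and 115 after leptin. There all 7 leptin libraries exceeded the saline median and 1 exceeded every saline library. Over both sets, with set as a term, the log2 fold change was 0.29 (SE 0.087; edgeR adjusted p = 0.164), and 0.312% of all genes passed. Without Saline-water 10 it was 0.35 (adjusted p = 0.0149), when each of the 27 libraries was left out in turn. That library is singled out for its high Fut4, so the larger value follows from the choice and is no separate support.

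**Figure D2:**
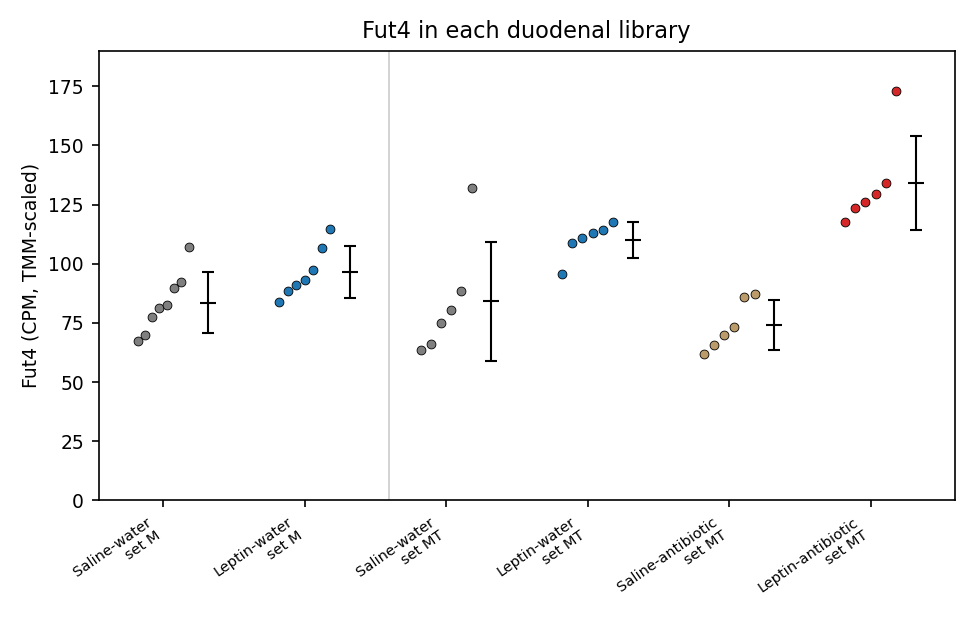
Fut4 in CPM for each library (points), by group and set, with the mean and SD beside them. Leptin-antibiotic libraries (118 to 173) sit above all Saline-antibiotic libraries (62.1 to 87.4), and Saline-water 10 (132) stands apart from its group.

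Fut4 in antibiotic-treated mice without leptin did not differ from water beyond its error (log2 fold change -0.17, SE 0.13, adjusted p = 0.624; 0.196% of all genes passed). Without Saline-water 10 it was -0.0030 (SE 0.11, adjusted p = 0.994). After leptin, antibiotic libraries had more Fut4 than water libraries of set MT (0.30, SE 0.13), and 5 of 6 lay above all 6 Leptin-water libraries, but the adjusted p was 0.227 (2.28% of genes passed). The share of all genes with such an ordering was not counted, and 18.9% had an unadjusted p under 0.05 in edgeR. The leptin effect was larger on antibiotic than on water by 0.47 on the log2 scale (SE 0.19; unadjusted p = 0.0202, edgeR adjusted p = 0.772). Without Saline-water 10 the difference was 0.30 (SE 0.15, adjusted p = 0.870), and no fucosyltransferase gene then had an unadjusted p under 0.05. No gene passed this interaction test (0%), in edgeR, DESeq2 or limma voom, and 1043 genes had an unadjusted p under 0.05 in edgeR. A difference in the Fut4 response between drinking waters was therefore not shown, and an equal response was not shown either. Between the sets, the leptin effect on water differed by 0.19 (SE 0.17, adjusted p = 0.768; 0.0428% of genes passed).

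Averaged over both drinking waters and both sets, Fut4 rose with leptin by 0.46 on the log2 scale (SE 0.081; edgeR adjusted p = 0.00103), with 3.01% of genes passing. This average shares its libraries with the comparisons above and is no separate evidence. Of the family's CPM per kilobase, Fut4 made up a median of 60.1% in Leptin-antibiotic libraries (53.0 to 65.5%) and 46.2% in Saline-antibiotic libraries. In set MT on water the medians were 52.7% after leptin and 44.2% after saline, and in set M 53.2% and 47.9%.

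The Fut4 call on antibiotic held with each of the 24 libraries left out in turn (log2 0.78 to 0.92). The call was lost, with a positive fold change, without the libraries high in pancreas genes (0.75, adjusted p = 0.253) and with an epithelium score (0.76, adjusted p = 0.0777), an enterocyte score (0.67, adjusted p = 0.324) or tissue scores (0.85, adjusted p = 0.0521) as a covariate. Of the groups compared, the fit without pancreas-high libraries left out Saline-antibiotic 1, 2 and 5 and Leptin-antibiotic 3. No gene at all passed in any of these fits. Marker lists of several cell types moved with Fut4, none with a gene past the threshold. All 10 enterocyte markers had positive log2 fold changes with leptin on antibiotic (median 0.37), and their summed level ran from 23044.5 to 35288 CPM in Leptin-antibiotic libraries against 14828 to 25324 in Saline-antibiotic ones. All 5 distal ileum markers were also positive (median 0.37; summed 323 to 475 CPM against 184 to 398), as were all 7 enteroendocrine markers (median 0.31; 177 to 241 against 142 to 237) and 6 of 8 goblet markers (median 0.35; 12579 to 15921 against 8270 to 13642). None was positive of 7 crypt and stem markers (median -0.25; 628 to 944 against 797 to 1507), of 7 Paneth markers (median -0.21; 434 to 1286 against 349 to 1854), of 8 smooth muscle markers (median -0.14; 930 to 1448 against 940 to 1678) or of 16 exocrine pancreas markers (median -1.07; 17.6 to 1346 against 17.5 to 1252). Over all genes the median was -0.02. No marker of these lists was at 0 in all libraries of a group. The part of cell composition in the Fut4 result was not tested beyond the fits with these scores.

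**Figure D3:**
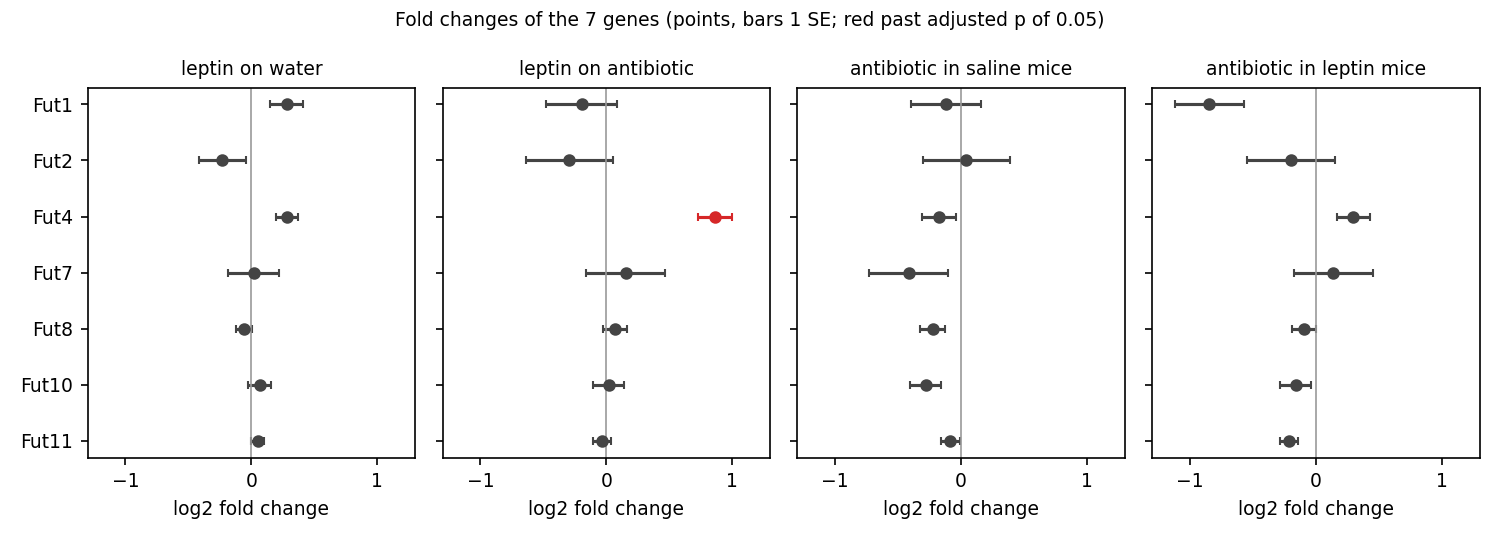
Log2 fold change (points) with 1 SE (bars) of the 7 fucosyltransferase genes in 4 comparisons. Only Fut4 with leptin on antibiotic (0.86, red) passed an adjusted p of 0.05.

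Across the 39 libraries, with values centred within each set, Fut4 was most like Kcnk5, a potassium channel gene (Pearson r = 0.927 of log2 CPM), then Cyp27a1, a sterol hydroxylase gene of bile acid synthesis (0.889), and Tsc22d3, the glucocorticoid-induced leucine zipper gene (0.885). These were the highest of 12585 genes compared. Libraries of 1 group share their treatment, so part of each r is the group difference itself. The 3 genes were picked on these same libraries, so a rise where Fut4 rose follows from the choice and is no separate evidence. With leptin on antibiotic, all of these rose: Kcnk5 by 0.80 (SE 0.14, edgeR adjusted p = 0.0098), Cyp27a1 by 0.90 (SE 0.17, adjusted p = 0.016) and Tsc22d3 by 0.84 (SE 0.16, adjusted p = 0.016). All 3 calls were lost, like that of Fut4, without the libraries high in pancreas genes and with tissue, epithelium or enterocyte scores, settings in which no gene passed (adjusted p up to 0.452). Those of Cyp27a1 and Tsc22d3 were also lost without Leptin-antibiotic 2 or 3 or Saline-antibiotic 1 or 4. On water Kcnk5 rose by 0.39 (adjusted p = 0.0489), a call lost in 6 of 11 alternatives and with 23 of 27 libraries left out in turn, whereas Cyp27a1 (0.18) and Tsc22d3 (0.39) did not pass.

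The mean of 12 glucocorticoid-responsive genes followed Fut4 closely. Pearson's r was 0.908 and Spearman's rho 0.931 over 39 libraries (permutation p = 1e-05 for each, the smallest the 100000 permutations can give; adjusted p = 0.000402 over the 161 relations of 7 genes with 23 lists). The list was chosen with the rise of Fut4 and of glucocorticoid genes in these data already known, so its p is no independent support. Libraries were permuted within each set and across groups, here and for the other lists, so a shared response to treatment enters each p. Without the 2 libraries farthest from the median, Saline-antibiotic 1 and Saline-water 10, r was 0.897. It was 0.822 within set M, 0.936 within set MT and 0.824 after removing the mean of each group. Tsc22d3, Per1 (a clock gene, r = 0.865), Bcl6 (a repressor, 0.841), Fkbp5 (a receptor co-chaperone, 0.789) and Sgk1 (a kinase, 0.780) were the closest members, while Nr3c1, the receptor itself (-0.096), and Dusp1, a phosphatase gene (-0.154), were not close. With leptin on antibiotic 4 of the 12 rose, namely Fkbp5 (1.48), Bcl6 (1.00), Tsc22d3 (0.84) and Per1 (0.80), none fell, and 10 had positive fold changes (median 0.68). In that comparison 0.514% of all genes passed. None of these 4 passed without the pancreas-high libraries or with the tissue, epithelium or enterocyte scores (adjusted p up to 0.556). The Bcl6 call held with each library left out, whereas that of Fkbp5 was lost for 7 and that of Per1 for 16 of the 24. With leptin on water 0 of the 12 passed (median log2 fold change 0.19), where 0.312% of all genes did. With leptin over all libraries 5 of the 12 rose, where 3.01% of all genes passed. Saline-water 10, the saline library highest in Fut4, had 110 CPM of Tsc22d3 against a Saline-water median of 48.4 in set MT. Fut4 also followed the 10 enterocyte markers (r = 0.599, rho 0.527, permutation p = 0.00038, adjusted p = 0.0102), with r = 0.441 after removing group means and 0.502 without the 2 libraries farthest out. Among these, Slc5a1, the glucose transporter SGLT1 gene, had r = 0.757. For the 5 distal ileum markers r was 0.699 (rho 0.684, permutation p = 1e-05, adjusted p = 0.000402), 0.556 after removing group means and 0.620 without the 2 farthest libraries. Genes of N-glycan branching also went with Fut4, namely Mgat3 (r = 0.652), Mgat5 (0.605) and Mgat1 (0.570), whereas Mgat4b (0.099) and Man2a2 (-0.196) were not close. Within set M these were weaker (Mgat3 0.248, Mgat5 0.044, Mgat1 0.161). Of the 161 relations 8 had an adjusted p under 0.05, and not all of them are given here.

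**Figure D4:**
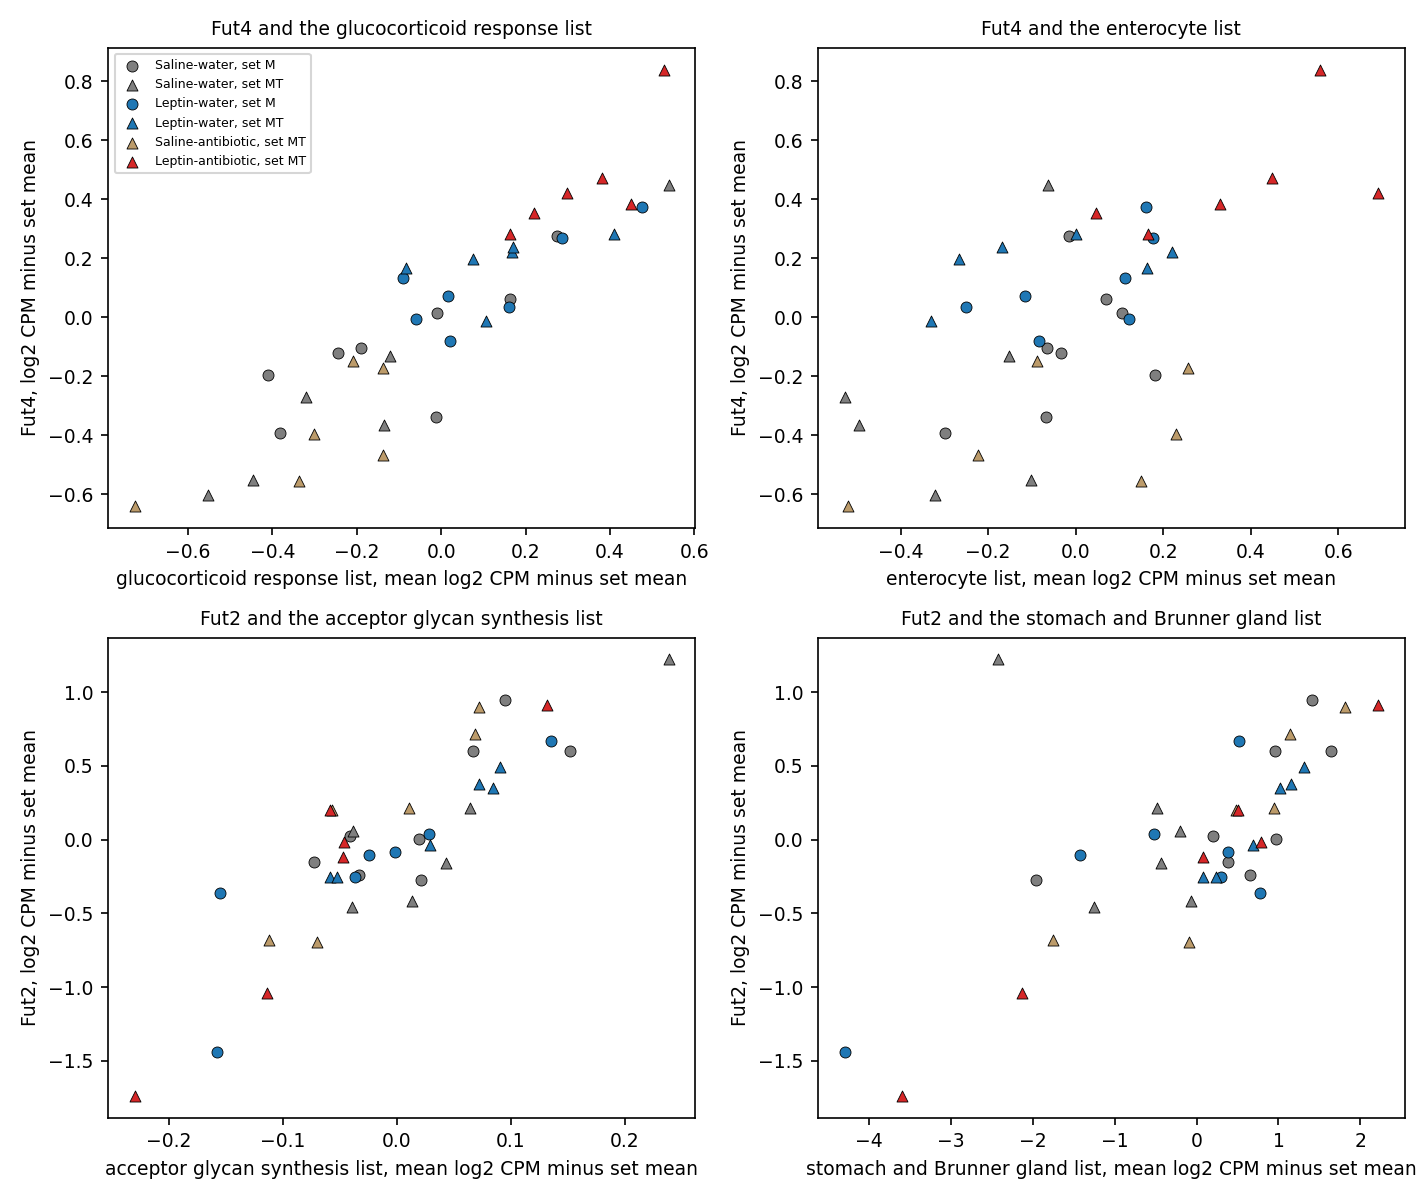
Log2 CPM of Fut4 (top) or Fut2 (bottom), minus the set mean, against the mean log2 CPM of a gene list, minus the set mean, 1 point per library. Fut4 follows the glucocorticoid list (r = 0.908) more closely than the enterocyte list (0.599), and Fut2 follows the acceptor glycan list (0.878) and the stomach and Brunner gland list (0.688), except Saline-water 9, which is high in Fut2 and low in the latter.

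Fut2, the secretor gene, did not pass in any comparison of leptin or antibiotic, and its libraries overlapped in all of them. In set M it had 17.8, 21.8 and 41.7 CPM after saline (lowest, median, highest) and 7.95, 20.1 and 34.4 after leptin. On water in set MT the values were 15.1, 20.1 and 48.4 after saline and 17.4, 23.4 and 29.3 after leptin. On antibiotic they were 12.8, 23.96 and 38.7 after saline and 6.19, 19.8 and 39.1 after leptin. Leptin gave a log2 fold change of -0.23 on water (SE 0.19, adjusted p = 0.687) and -0.29 on antibiotic (SE 0.35, adjusted p = 0.693). The value on water was -0.10 without Saline-water 9. With antibiotic it was 0.04 in saline mice (SE 0.35, adjusted p = 0.972) and -0.20 in leptin mice (SE 0.35, adjusted p = 0.800). The errors on antibiotic are wide, so only large changes of Fut2 were detectable.

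The variation of Fut2 between libraries went with mucin-type O-glycan genes and with stomach and Brunner gland genes. It did not follow the goblet (r = 0.200), Paneth (0.018) or enteroendocrine (-0.060) lists. Its nearest genes were Galnt4, which starts mucin-type O-glycans (r = 0.872), Cfi, complement factor I (0.866), and Tspan1, a tetraspanin gene (0.866). The mean of 24 genes that make the glycans fucose is added to followed it (r = 0.878, rho 0.814, permutation p = 1e-05 for each, the smallest possible, adjusted p = 0.000402). That r was 0.888 after removing group means and 0.830 without the 2 farthest libraries. Within this list the O-glycan genes Galnt4, Galnt12 (0.822), Galnt7 (0.822), Galnt3 (0.819) and Gcnt3 (0.784) were close, whereas Gcnt4 (-0.363) and B3gnt2 (-0.241) were not. Also negative were B3gnt3 (-0.237), C1galt1c1 (-0.189), B3galt4 (-0.143), B3gnt7 (-0.138), B3gnt5 (-0.069) and B3galt1 (-0.017). The mean of the list therefore does not stand for each of its genes.

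The 12 stomach and Brunner gland genes also followed Fut2 (r = 0.688, rho 0.663, permutation p = 2e-05, adjusted p = 0.000644; 0.701 after removing group means). Without the 2 libraries lowest in these genes, Leptin-water 7 and Leptin-antibiotic 1, r was 0.493. Pgc (pepsinogen C, 0.755), Gkn3 (0.742), Tff2 (a trefoil peptide of mucous glands, 0.720) and Muc6 (the gland mucin, 0.717) were the closest. Atp4a, the parietal cell proton pump, was not (-0.029), and 6 of the 8 goblet markers had a negative r, among them the mucin Muc2 (-0.362), while Agr2 (0.753) and Spdef (0.644) were positive. Enterocyte markers ran opposite to Fut2 (r = -0.527, rho -0.485, permutation p = 0.00108, adjusted p = 0.0248). The summed stomach and Brunner gland genes ranged within 1 group from 5100 to 27113 CPM (Leptin-antibiotic), so the libraries held very different amounts of that tissue's RNA. Its part in the Fut2 values was not tested. Saline-water 9 had the highest Fut2 (48.4 CPM) with the lowest mean of these genes among the Saline-water libraries of set MT.

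Sec1, the neighbour of Fut2 that the symbol rule does not take, had 2 to 42 reads per library and followed Fut2 (r = 0.887) but not Fut1 (0.031). Fut2 and Sec1 are related in sequence, and how the authors' counting treated reads that fit both is not given in the sources used here. Sec1 also shares 519 exon bases with Ntn5, a gene on the opposite strand, so reads over those bases may belong to either. The Sec1 values are therefore uncertain.

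Fut8, the core fucosyltransferase, was nearly level across the groups. In set M it had 102, 109 and 122 CPM after saline and 95.9, 107 and 123 after leptin. In set MT it had 104, 124 and 187 in Saline-water, 108, 122 and 136 in Leptin-water, 101, 110 and 115 in Saline-antibiotic and 108, 112 and 128 in Leptin-antibiotic libraries. With leptin the log2 fold change was -0.06 on water (SE 0.064, adjusted p = 0.791) and 0.07 on antibiotic (SE 0.096, adjusted p = 0.737). With antibiotic it was -0.23 in saline mice (SE 0.096, adjusted p = 0.338), where all 6 antibiotic libraries lay below the water median. Saline-water 13, at 187 CPM, stood above the rest of that group, and without it the value was -0.096 (SE 0.066, adjusted p = 0.586). The genes most like Fut8 were Dctn4, a dynactin subunit (r = 0.808), Usp3, a deubiquitinase (0.793), and Nr2c1, a nuclear receptor (0.791).

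Fut1, the other H antigen gene, was close to the limit of counting. In set MT it had 0.358, 0.568 and 0.870 CPM in Saline-water, 0.636, 0.877 and 1.03 in Leptin-water, 0.258, 0.526 and 0.827 in Saline-antibiotic and 0.291, 0.409 and 0.868 in Leptin-antibiotic libraries. On water all 6 leptin libraries of set MT exceeded the saline median, whereas 4 of 7 did in set M. Leptin gave 0.53 (SE 0.27) in set MT alone, 0.09 (SE 0.16) in set M alone and 0.28 over both (SE 0.13, adjusted p = 0.42). Among leptin mice, 5 of 6 antibiotic libraries lay below all 6 water libraries, and the log2 fold change was -0.85 (SE 0.27, adjusted p = 0.093). That change passed without Leptin-antibiotic 3, the exception (-1.14, adjusted p = 0.0383). The library is singled out for its Fut1 value, so the pass follows from the choice and is no separate support. In this comparison 18.9% of all genes had an unadjusted p under 0.05 in edgeR, and the share with such an ordering was not counted. Fut7, the selectin ligand enzyme, ran from 0.127 to 0.570 CPM, and its groups overlapped throughout. Its log2 fold changes were 0.02 and 0.15 with leptin on water and on antibiotic (SE 0.20 and 0.31) and -0.42 and 0.14 with antibiotic in saline and leptin mice (SE 0.31 for each). The value on water averaged opposite signs, 0.31 (SE 0.26) in set M and -0.40 (SE 0.31) in set MT, whose difference was -0.70 (SE 0.39, adjusted p = 0.574).

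Fut10 and Fut11 had lower means on antibiotic in both injection groups, without passing the test. In set MT, Fut10 averaged 2.64 ± 0.33 CPM (SD, n = 6) in Saline-water and 2.16 ± 0.30 in Saline-antibiotic libraries, and 2.44 ± 0.27 in Leptin-water and 2.17 ± 0.30 in Leptin-antibiotic libraries. Fut11 averaged 13.1 ± 1.32 and 12.3 ± 0.798 CPM in the saline groups and 14.0 ± 0.904 and 12.0 ± 0.754 in the leptin groups, where 5 of 6 antibiotic libraries lay below all 6 water libraries. The share of all genes with such an ordering was not counted. Averaged over saline and leptin, antibiotic changed Fut11 by -0.15 (SE 0.053, adjusted p = 0.0857), Fut10 by -0.22 (SE 0.086, adjusted p = 0.121), Fut8 by -0.16 (SE 0.068, adjusted p = 0.153) and Fut1 by -0.49 (SE 0.21, adjusted p = 0.149). These 4 had an unadjusted p under 0.05 in edgeR, as did 22.5% of all genes. A negative sign was found for 6 of the 7 genes, while 49.7% of all genes had a positive one. None passed after adjustment, while 6.22% of all genes did. Fut11 passed without Leptin-water 10 (-0.18, adjusted p = 0.0459) or Saline-water 13 (-0.17, adjusted p = 0.0288). Each had the lowest Fut11 of its group in set MT, so these passes are no separate support. Other tools called 1 (DESeq2, with 8.84% of all genes) and 3 (limma voom, with 14.2%) of the 7. The Fut8 value was -0.096 (adjusted p = 0.191) without Saline-water 13. With leptin, Fut11 had log2 fold changes of 0.05 on water (SE 0.051) and -0.03 on antibiotic (SE 0.073). Fut10 had 0.07 (SE 0.091) and 0.02 (SE 0.12), and on water its sign differed between set M (0.21, SE 0.13, with all 7 leptin libraries above the saline median) and set MT (-0.10, SE 0.12, with 1 of 6 above it), a difference of -0.30 (SE 0.18, adjusted p = 0.601). Fut10 was most like Dennd5a (r = 0.720), Gdf11 (0.678) and Adgra2 (0.673), and Fut11 most like Abca8b (0.718), Zfp346 (0.695) and Ubr2 (0.692).

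**Figure D5:**
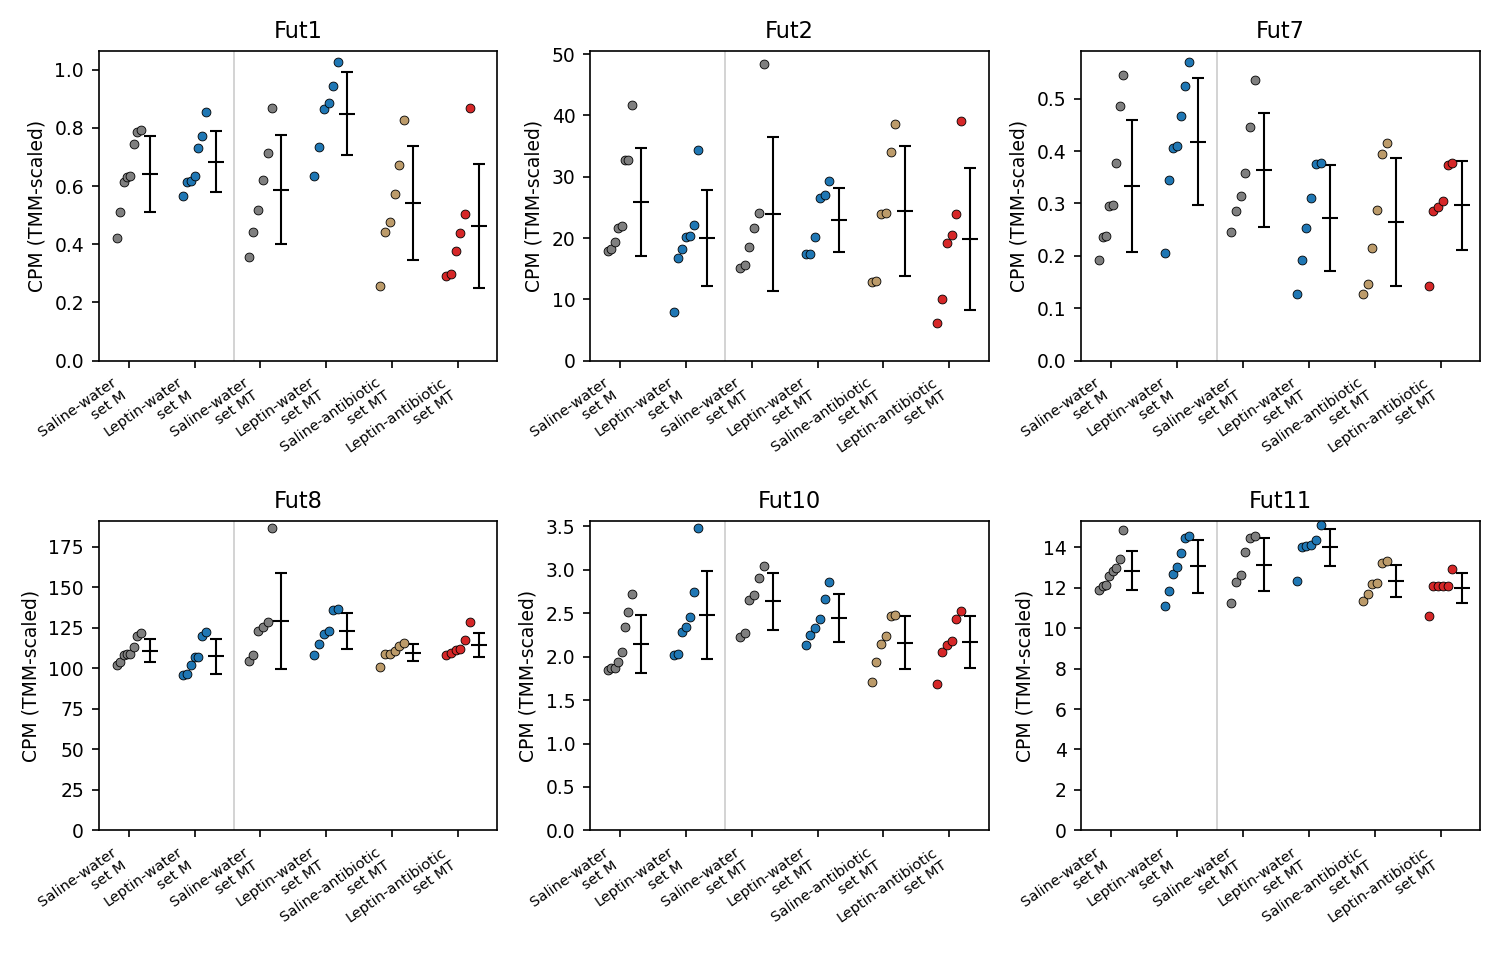
CPM of the 6 genes other than Fut4 in each library (points), by group and set, with the mean and SD beside them, and a separate vertical scale for each gene starting at 0. The groups overlap for all 6, and single libraries stand out for Fut2 (48.4), Fut8 (187) and Fut1 (0.868).

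The members did not vary as a block. Between the 5 genes with a mean of at least 1 log2 CPM, Pearson's r over the 39 libraries ran from -0.205 (Fut2 and Fut4) to 0.342 (Fut10 and Fut11). None of the 7 passed between the sets in Saline-water mice, where 12.2% of all genes did. The closest were Fut10 (log2 fold change of set MT against set M 0.30, SE 0.12, adjusted p = 0.126) and Fut8 (0.22, SE 0.10, adjusted p = 0.166; 0.087 without Saline-water 13). Fut4 had 0.01 (SE 0.14, adjusted p = 0.984), and -0.17 (SE 0.11, adjusted p = 0.324) without Saline-water 10.

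The genes that supply and remove fucose did not pass with leptin or antibiotic. Of all genes, 0.312% passed with leptin on water, 0.514% with leptin on antibiotic and 3.01% with leptin over all libraries. With antibiotic, 0.196% passed in saline mice, 2.28% in leptin mice and 6.22% over set MT. A count of 0 in lists this short is near those shares and says little about the pathways. Of 6 genes for GDP-fucose synthesis, salvage and transport none passed in any of these comparisons, and with leptin on antibiotic 5 had positive fold changes (median 0.09). Slc35c2, a transporter gene of the family of the GDP-fucose carrier, was nearest to the threshold (0.25, SE 0.080, adjusted p = 0.123), followed by Slc35c1, the GDP-fucose carrier itself (0.19, SE 0.077, adjusted p = 0.198). Fpgt, of the salvage route, was nearest over all libraries with leptin (0.12, SE 0.038, adjusted p = 0.0889). The fucosidase genes Fuca1 and Fuca2 had 0.17 and 0.26 with leptin on antibiotic (adjusted p = 0.198 and 0.21). Of 6 genes of protein O-fucosylation and its extension, such as Pofut1 and Lfng of the Notch pathway, none passed.

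Among 24 genes that build acceptor glycans, none passed with leptin on water or on antibiotic, where 0.312% and 0.514% of all genes did. Averaged over both injections, antibiotic raised B3gnt2 (polylactosamine chains, 0.22) and Gcnt4 (O-glycan branches, 0.20) and lowered B3gnt8 (-0.52), in set MT. In that comparison 6.22% of all genes passed. The calls of B3gnt2 and Gcnt4 were lost with an enterocyte score (adjusted p = 0.169 and 0.0622). Gcnt4 rose with antibiotic in leptin mice (0.31), where 2.28% of all genes passed. B3gnt2 also rose with leptin over all libraries (0.13), a call lost with 31 of 39 libraries left out in turn. Of 11 transferases that cap the same chains, St3gal1, a sialyltransferase of O-glycans, rose with leptin on antibiotic (0.46, SE 0.11, adjusted p = 0.0481). It also rose with antibiotic in leptin mice (0.61, SE 0.11, adjusted p = 0.00391) and over set MT (0.41, SE 0.083, adjusted p = 0.00367). No other member passed in these comparisons, where 0.514%, 2.28% and 6.22% of all genes did. The leptin call was lost in 7 of 10 alternatives and with 19 of 24 libraries left out in turn. Both antibiotic calls were lost only with an enterocyte score (adjusted p = 0.0558 in leptin mice and 0.0539 over set MT). Of 8 genes of N-glycan branching, none passed with leptin. With antibiotic over set MT, Mgat2 (0.15) and Mgat3 (0.17) rose and Man2a2 (-0.21) fell, calls lost with 19, 18 and 7 of the 24 libraries left out in turn. The share of all genes passing there was 6.22%.

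Of 15 genes of interleukin-22 and lymphoid signals to the epithelium, Il10rb, a subunit of the interleukin-22 receptor, rose with leptin on antibiotic (0.41, SE 0.078, adjusted p = 0.016), a call lost in 6 of 10 alternatives, among them those without the pancreas-high libraries and with the 3 kinds of score. It was also lost with 5 of 24 libraries left out in turn. In that comparison 0.514% of all genes passed. With leptin over all libraries Il10rb rose by 0.18 and Il1b, an inflammatory cytokine gene, fell (-0.68), calls lost under a replicate block and, for Il10rb, in 2 other alternatives. On antibiotic, Il22ra1, the partner of Il10rb, had a log2 fold change of 0.32 with leptin (SE 0.11, adjusted p = 0.159). Averaged over saline and leptin, antibiotic lowered Reg3b (-3.85, SE 0.83, adjusted p = 0.0066) and Reg3g (-2.85, SE 0.65, adjusted p = 0.00917), antimicrobial lectins induced by interleukin-22 and the microbiota, calls lost with an enterocyte score (adjusted p = 0.164 and 0.169). Without Saline-water 9 they fell less (-2.18 and -1.55) and still passed. With antibiotic over all of set MT, 6.22% of all genes passed. Over the same libraries Fut2 changed by -0.08 (SE 0.24, adjusted p = 0.889).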

How the data were processed

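Duodenal RNA (150 ng total RNA per library, strand-specific kit with ribosomal RNA depletion) was sequenced in 39 libraries. The authors deposited 1 table of raw read counts per gene, already filtered. Per the submitters' processing notes, reads were handled with HISAT2, featureCounts, FastQC and edgeR 3.42.0 on mm10. The filter, annotation and strand setting were not given in the sources used here. No 2 of the 109 within-group pairs of libraries were identical. From the deposited counts, edgeR 4.0.16 (R 4.3.3) fitted quasi-likelihood models with TMM factors and filterByExpr, with Benjamini-Hochberg adjustment over all genes tested and a threshold of 0.05. All 7 fucosyltransferase genes passed the filter in every fit. Comparisons involving antibiotic used the 24 libraries of set MT, and leptin on water used 27 libraries with set as a term. CPM are TMM-scaled, log2 CPM have a prior count of 2, and SE is the log2 fold change divided by the root of F. Alternatives were DESeq2 1.42.0, limma 3.58.1 voom with quality weights, other factors, no filter, covariates, a replicate block and leaving out libraries, and were also run for the other genes named as passing. Scripts were tested on simulated data. Counts per gene limit precision through counting error, which is large for Fut1 and Fut7. Named genes were all Fut genes, list members past the threshold (up to 6 per list, by p) and the 3 genes most like each Fut gene with a mean of at least 1 log2 CPM; other named genes were chosen after their values were seen, as was the search for AGAACA matches. The genes and lists were chosen with earlier results of these data known, and the rise of Fut4 and the glucocorticoid genes on antibiotic was among them.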

Additional observations from a re-analysis of the deposited data

Results flagged for a closer look

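Within the 42 sets of 1 fucosyltransferase gene in 1 group of 1 set, 6 held a library whose gap to its nearest neighbour exceeded Dixon's 95% value for that size of group. Chance flags about 1 in 20 sets. Fut4 was 132 CPM in Saline-water 10, where the next library had 88.3. Leptin-antibiotic 3 had 173 CPM of Fut4 (next 134) and 0.868 CPM of Fut1 (next 0.504), and it is 1 of the 6 libraries high in pancreas genes. Saline-water 9 had 48.4 CPM of Fut2 (next 24.1), and Saline-water 13 had 187 CPM of Fut8 (next 129). Leptin-antibiotic 2 had the lowest Fut11 of its group, 10.6 CPM (next 12.1).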

How the results depend on the processing

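Fut4 with leptin over all libraries stayed past the threshold in all 9 alternatives (0.33 to 0.49) and with each library left out (0.42 to 0.51). Fut4 with leptin on antibiotic stayed past it under DESeq2 (0.86), limma voom (0.77), upper quartile factors (0.83), no filter (0.85) and a fit of the groups compared alone (0.85). It was lost without the libraries high in pancreas genes (0.75), with tissue scores (0.85), an epithelium score (0.76) or an enterocyte score (0.67; the last 2 chosen after seeing the data) and with a replicate block (0.85, adjusted p = 0.0606), leaving 0 of the 7 genes called instead of 1. Same-numbered libraries correlated between -0.278 and 0.581, so the numbers were not taken to pair them. With leptin on water, Fut4 ranged from 0.21 to 0.39 in other settings (0.30 under the block) and from 0.25 to 0.35 with a library left out, and 0 to 1 genes were called (1 without Saline-water 10). With antibiotic in leptin mice 0 to 1 genes were called with a library left out (Fut1 without Leptin-antibiotic 3), 2 by limma voom and 1 without the pancreas-high libraries. With antibiotic over set MT it was 0 to 1 with a library left out (Fut11 without Leptin-water 10 or Saline-water 13), 1 by DESeq2, 3 by limma voom, 1 under upper quartile factors, 1 without the pancreas-high libraries and 2 with tissue scores. Of 61 other gene and comparison pairs, 2074 alternative values held 71 of the opposite sign and 15 past the threshold. The causes of these changes were not tested.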
